A study of Mus musculus with 20 samples.

Results

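The receiving side of activin A signaling was described in prostate cancer (PC) cells sorted from bone metastases, through 10 genes taken by their mouse symbols: the activin A subunit gene Inhba, its antagonist Fst, the receptors Acvr2a, Acvr2b, Acvr1b and Acvr1, and the signal carriers and inhibitor Smad2, Smad3, Smad4 and Smad7. All 10 were listed in each of the 3 deposited expression tables, which together hold 17104 genes after the removal of unnamed transcript models. The study asked how macrophages support resistance to enzalutamide, an anti-androgen drug, and placed activin A from these cells upstream of the tumor cell. RNA of the tumor cells was sequenced in 20 libraries, 5 per group, each from the cells of 3 pooled mice aged 4 to 6 weeks.

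MycCaP-Bo cells, which all groups share, came from MycCaP, an androgen-dependent line of a Myc-driven mouse prostate tumor, by repeated selection for growth in bone, and carry luciferase and an infrared fluorescent protein (iRFP). They were injected into the heart of mice of the same FVB/N background and sorted from bone lesions as CD45- iRFP+ cells. The groups therefore model 1 line in one strain. Naive tumors received vehicle. Resist tumors received enzalutamide at 30 mg/kg by daily gavage for 18 days. Resist-Mac tumors received the same drug and, over the last 4 days, clodronate liposomes, which deplete macrophages, at 1 mg per mouse. Naive-Mac tumors received the liposomes without enzalutamide, for a time not given in the sources used here. Naive and Resist libraries formed the first labelled batch and share a table, whereas Resist-Mac and Naive-Mac libraries each had a batch and a table of their own. In any comparison with a depleted group, batch and treatment therefore cannot be told apart.

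Activin A is a dimer of the protein that Inhba encodes. It binds a type II receptor, ActRIIA or ActRIIB (genes Acvr2a and Acvr2b), which then activates the type I receptor ALK4 (Acvr1b), and ALK4 phosphorylates Smad2 and Smad3. These join Smad4 and enter the nucleus, while Smad7 blocks the type I receptor and follistatin (Fst) traps the ligand outside the cell. ALK2 (Acvr1) is a type I receptor used mainly by BMP ligands, and activin A can hold it in a complex that does not signal.

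The study silenced Acvr2a and Acvr1b. Both were called changed, with Acvr1, Smad3 and Smad7, in Naive vs. Naive-Mac, where 59.7% of all genes tested were called. Batch and treatment cannot be told apart there. The Acvr2a call was lost (log2 change 0.07) once the length and base makeup of transcripts were allowed for. The promoters of Acvr2a, Acvr1b and Smad3, chosen from these genes, are shown as a description. Each sequence holds the 250 bases before the RefSeq start site in build GRCm38.p6, on the strand of the gene. Acvr2a lies on chromosome 2, with its promoter at chr2:48813859-48814108 on the plus strand. Acvr1b lies on chromosome 15, with its promoter at chr15:101173822-101174071 on the plus strand. Smad3 lies on chromosome 9, with its promoter at chr9:63757995-63758244 on the minus strand. Capitals mark the Smad binding letters CAGAC, or GTCTG on the other strand.
Acvr2a: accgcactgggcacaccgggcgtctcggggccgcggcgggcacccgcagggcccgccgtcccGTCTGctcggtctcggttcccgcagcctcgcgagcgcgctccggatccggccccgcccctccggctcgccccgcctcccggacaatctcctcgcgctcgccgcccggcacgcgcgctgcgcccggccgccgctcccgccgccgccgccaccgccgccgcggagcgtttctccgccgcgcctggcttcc
Acvr1b: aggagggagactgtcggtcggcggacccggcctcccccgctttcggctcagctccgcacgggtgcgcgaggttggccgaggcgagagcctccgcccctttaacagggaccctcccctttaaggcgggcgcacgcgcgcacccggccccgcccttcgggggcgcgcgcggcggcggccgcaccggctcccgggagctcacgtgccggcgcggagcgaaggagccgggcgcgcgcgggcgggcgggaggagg
Smad3: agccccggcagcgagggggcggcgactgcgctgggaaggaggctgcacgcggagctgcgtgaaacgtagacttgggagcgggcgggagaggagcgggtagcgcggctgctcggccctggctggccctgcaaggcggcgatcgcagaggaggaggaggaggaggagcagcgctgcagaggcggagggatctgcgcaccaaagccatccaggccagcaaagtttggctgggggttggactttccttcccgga

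The letters occurred 1 time in the Acvr2a promoter and 0 times in those of Acvr1b and Smad3, and 42.2% of 32851 RefSeq promoters of this length hold them. All of these promoters were rich in G and C, at 82.0% in Acvr2a, 78.8% in Acvr1b and 69.2% in Smad3, against a median of 52.4% over all promoters. No binding was measured, so the matches only describe the letters in these windows.

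Expression was deposited as FPKM, a fragment number scaled to transcript length and library depth, which allows levels of different genes to be compared per length. The value of a single fragment, read from the lowest FPKM values and transcript lengths, put the depth near 9160000 to 12100000 fragments per library. Total FPKM differed between the tables, at 519998 to 583255 in Naive and Resist libraries, 617494 to 761510 in Resist-Mac and 882276 to 1040436 in Naive-Mac libraries. The prostate markers Krt8 and Hoxb13 were present in every library, with Krt8 at 84.8 FPKM or more, whereas the epithelial markers Krt18 and Cdh1 did not exceed 0.23 and 0.18 FPKM. Of the 8 macrophage markers, Adgre1, Csf1r, C1qa and Mrc1 stayed at or below 0.52, 2.10, 1.10 and 0.22 FPKM. The others reached more, at 4.32 FPKM for Cd68, 5.35 for Ptprc, 10.97 for Itgam and 787.76 for Lyz2, each in a Resist-Mac library. Neutrophil markers summed to 49.9 to 1028 FPKM in Naive and Resist libraries, 339.5 to 7513 in Resist-Mac and 54.3 to 5481 in Naive-Mac libraries. The sorted samples thus held RNA of other bone marrow cells in varying amounts. In pooled cells of this kind, fewer cells of a type and less RNA per cell cannot be told apart.

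The tumor cells had RNA for each step from the activin receptor to Smad4, little for the ligand gene Inhba and almost none for follistatin. In naive tumors the common mediator Smad4 was highest at 56.3 ± 2.18 FPKM (SD, n = 5), followed by Smad7 at 18.0 ± 4.91, Smad3 at 17.7 ± 1.68, Acvr1 at 14.2 ± 0.901, Acvr1b at 9.69 ± 1.12, Acvr2a at 7.24 ± 0.455 and Smad2 at 4.74 ± 0.360. Acvr2b at 1.04 ± 0.222 FPKM, Inhba at 0.804 ± 0.282 and Fst at 0.008 ± 0.0179 came last. Libraries of neighbors in this order overlapped for Smad7 with Smad3 and for Acvr2b with Inhba, and those of the other neighbors did not. Among the 13850 genes listed in all tables, Smad4 lay at percentile 89.5 in naive tumors, Acvr1b at 58.2, Acvr2a at 52.4, Inhba at 28.8 and Fst at 5.13.

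**Figure D1:**
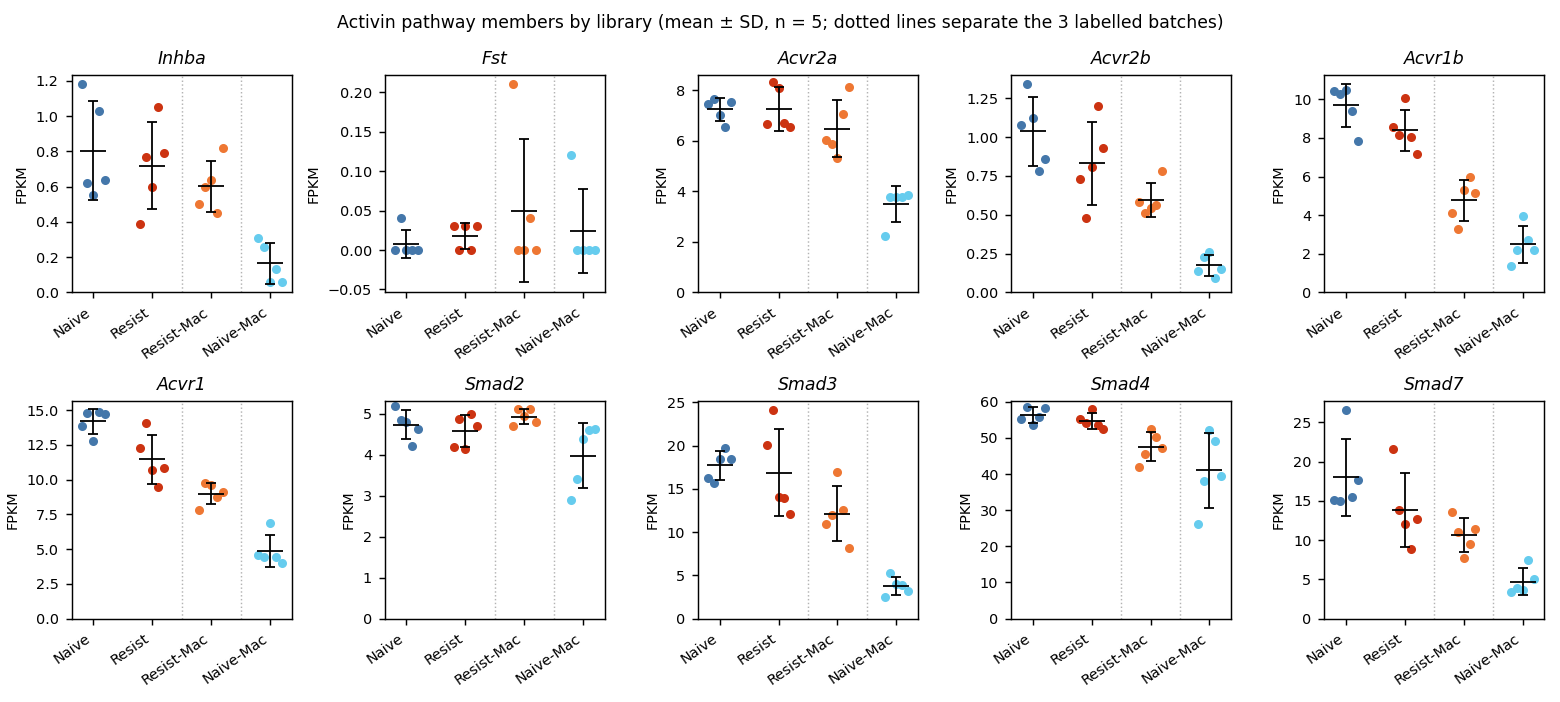
FPKM of the 10 genes (vertical axes, linear) in each of the 5 libraries of the 4 groups, with the mean and SD in black and dotted lines between the labelled batches. Naive and Resist libraries overlap in every panel, and Naive-Mac libraries lie below all Naive libraries for every gene but Fst and Smad2.

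Inhba, whose product forms activin A, was low in the tumor cells. It measured 1.18, 0.62, 0.55, 1.03 and 0.64 FPKM in the Naive libraries and 0.39, 0.77, 0.60, 1.05 and 0.79 in the Resist libraries. These ranges overlapped almost fully, and the means of 0.804 and 0.720 FPKM did not differ beyond the spread between libraries (exact permutation test, two-sided, p = 0.635, n = 5). Each value rested on about 30 to 74 fragments. Resist-Mac libraries held 0.50, 0.60, 0.64, 0.45 and 0.82 FPKM, all inside the Resist range, with replicates 1 and 4 below the Naive range. Naive-Mac libraries held 0.31, 0.26, 0.06, 0.13 and 0.06 FPKM, from about 4 to 19 fragments, and all of them were below every library of the other groups.

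The genes for the partners of this subunit were lower still. Inhbb, which encodes the subunit of activin B, did not exceed 0.14 FPKM in any library. Inha, the inhibin alpha subunit, was listed for Naive and Resist libraries but in neither of the other tables, at 0.06 FPKM in Naive replicate 3 and at 0 in the rest. Macrophages and monocytes were not analysed here.

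Follistatin RNA was at the limit of detection. Fst was listed at 0 in 4 of 5 Naive, 2 of 5 Resist, 3 of 5 Resist-Mac and 4 of 5 Naive-Mac libraries. Where it was above 0 it reached 0.04 FPKM in Naive, 0.03 in Resist, 0.21 in Resist-Mac and 0.12 in Naive-Mac, or about 1 to 6 fragments. At this depth 0 fragments allow a level of up to 0.0851 to 0.112 FPKM per library (3 fragments, counting error only), so no difference in Fst was detectable. Fstl3, which encodes a related secreted protein that also binds activin, was clearly present, at 9.34 ± 2.04 FPKM in Naive, 8.72 ± 1.51 in Resist, 9.06 ± 2.90 in Resist-Mac and 4.93 ± 1.13 in Naive-Mac tumors (SD, n = 5). Exons of Fst overlap those of Gm47040 on the other strand, and whether the counting used strand is not given in the sources used here.

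Among the type II receptors, Acvr2a was the main transcript. It measured 7.46, 7.65, 7.03, 6.54 and 7.52 FPKM in the Naive libraries and 6.66, 8.31, 8.07, 6.70 and 6.55 in the Resist libraries. Means of 7.24 and 7.26 FPKM gave a log2 change of -0.00 with a 95% interval of -0.19 to 0.18 (limma adjusted p = 0.994). Resist replicates 2 and 3 lay above the Naive range and the other 3 inside it. Acvr2b measured 1.08, 1.34, 1.12, 0.78 and 0.86 FPKM in Naive and 0.73, 0.48, 0.81, 1.20 and 0.93 in Resist libraries. These groups overlapped (exact permutation test, two-sided, p = 0.238, n = 5). Acvr2a exceeded Acvr2b in all 20 libraries, and the ratio within a library averaged 7.20 ± 1.32 in Naive, 9.81 ± 4.54 in Resist, 11.0 ± 1.09 in Resist-Mac and 22.9 ± 11.6 in Naive-Mac tumors (SD, n = 5). In Naive-Mac libraries Acvr2b rested on about 3 to 8 fragments, and the exons of Acvr2a overlap those of Orc4 on the other strand.

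Acvr1b, the type I receptor of activin, measured 10.44, 10.28, 10.49, 9.40 and 7.86 FPKM in Naive and 8.55, 8.14, 10.07, 8.03 and 7.17 FPKM in Resist libraries. The Resist group was the lower by its mean, but 4 of its libraries lay inside the Naive range. The log2 change was -0.19 (95% interval -0.40 to 0.03, limma adjusted p = 0.201). Acvr1b exceeded Acvr2a in 5 of 5 Naive and 4 of 5 Resist libraries, and in 0 of 5 Resist-Mac and 1 of 5 Naive-Mac libraries. Acvr1c, which encodes the other type I receptor for ligands of this group, was not listed in any table.

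Of the 7 members tested with limma, only Acvr1 had an adjusted p under 0.05 between Naive and Resist tumors, a level that 18.9% of all genes tested reached. Its levels were 13.84, 14.79, 12.76, 14.83 and 14.75 FPKM in Naive and 12.29, 14.04, 10.66, 9.48 and 10.86 FPKM in Resist libraries. In 4 of 5 Resist libraries Acvr1 lay below the lowest Naive library, and Resist replicate 2 lay inside the Naive range. The log2 change of -0.29 (SE 0.09, 95% interval -0.50 to -0.09) had a limma adjusted p of 0.0482 but did not reach a fold change of 1.5, so the gene was not called. The adjusted p ran from 0.0132 to 0.127 over the alternatives run. Acvr1 exceeded Acvr1b in all 20 libraries, by a mean ratio of 1.49 ± 0.256 in Naive and 1.38 ± 0.266 in Resist tumors (SD, n = 5).

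The receptor-activated Smads differed in level and in spread. Smad3 measured 16.29, 15.68, 18.41, 19.72 and 18.48 FPKM in Naive and 20.03, 24.09, 14.11, 13.89 and 12.12 FPKM in Resist libraries. The Resist libraries fell on either side of the Naive range, with replicates 1 and 2 above it and the other 3 below it, and the log2 change was -0.11 (95% interval -0.45 to 0.23, limma adjusted p = 0.665). Smad2 stayed between 4.15 and 5.20 FPKM in all 10 of these libraries (log2 change -0.04, 95% interval -0.22 to 0.14, limma adjusted p = 0.764). Smad3 exceeded Smad2 in each of them, by a mean ratio of 3.78 ± 0.629 in Naive and 3.70 ± 1.11 in Resist tumors (SD, n = 5). Smad4 had the narrowest interval of the 7 tested members. It measured 55.27, 58.62, 53.45, 55.76 and 58.35 FPKM in Naive and 55.27, 54.10, 57.98, 53.63 and 52.32 FPKM in Resist libraries, with a log2 change of -0.04 (95% interval -0.16 to 0.07, limma adjusted p = 0.616).

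Smad7, the inhibitory Smad and itself a target of the pathway, was the most variable member in naive tumors after Fst and Inhba. It measured 15.15, 15.03, 26.55, 15.50 and 17.65 FPKM in Naive and 21.66, 13.79, 12.04, 8.91 and 12.71 FPKM in Resist libraries. In 4 of 5 Resist libraries it was below every Naive library, and Resist replicate 1 was above all Naive libraries but replicate 3. The log2 change of -0.38 had a 95% interval of -0.82 to 0.06 (limma adjusted p = 0.209).

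Over the whole table, limma tested 10119 genes in Resist vs. Naive and called 643 of them, or 6.35%. A call needed both an adjusted p under 0.05 (Benjamini-Hochberg) and a change of more than 1.5-fold. Of the 10 members, 7 passed the filter of a mean of 1 FPKM, and 0 were called, both with this test and with every scaling of the libraries tried. At an unadjusted limma p under 0.05 there was 1 of the 7, Acvr1, against 3496 of all 10119 genes tested. All 7 log2 changes were below 0, whereas 56.1% of all genes tested were above 0, and the members' median was -0.11 against 0.03 over all genes. This direction rested on the scaling, since 3 of 7 were above 0 when libraries were set to the same total over the shared genes. For 12.8% of tested genes, but for 0 of the 10 members, the Naive and Resist libraries were fully separated.

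**Figure D2:**
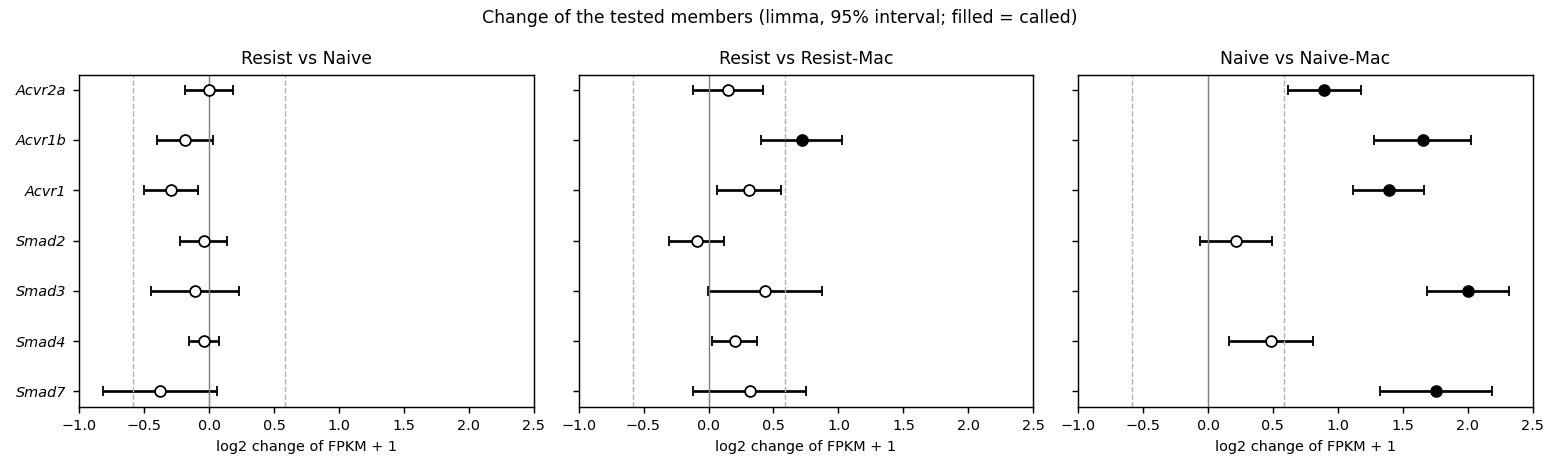
The log2 change of FPKM + 1 (horizontal axes) for the 7 tested members in the 3 comparisons, with limma 95% intervals, filled points for called genes and dashed lines at a fold change of 1.5. No point is filled in Resist vs. Naive, Acvr1b is in Resist vs. Resist-Mac, and 5 of 7 are in Naive vs. Naive-Mac, a contrast in which 59.7% of all genes were called.

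Other genes of the TGF-β superfamily did change with resistance. From lists of ligands, receptors, antagonists, Smads, Smad partners and target genes, 61 in all and 54 listed in this table, 31 were tested, and 5 rose and 1 fell in Resist vs. Naive. The backgrounds were 5.25% called higher and 1.11% called lower. Among the genes that rose, Smad9 passed the filter only through its Resist libraries, which favors a call as higher. The ligand Tgfb2 fell from 81.1 ± 5.38 to 36.1 ± 12.4 FPKM (SD, n = 5), a log2 change of -1.21 (limma adjusted p = 0.00148), while the ligand Tgfb3 rose from 17.9 ± 2.47 to 38.2 ± 8.96 FPKM, a log2 change of 1.02 (limma adjusted p = 0.0016). Tgfb2 measured 75.15 FPKM or more in the Naive and 53.33 FPKM or less in the Resist libraries, and Tgfb3 22.00 FPKM or less in the Naive and 22.64 FPKM or more in the Resist libraries. Neither pair of groups overlapped. Markers of other cells differed between the same libraries, with Hba-a1 at 104.23 FPKM or less in Naive and 105.02 FPKM or more in Resist libraries, and the stromal gene Col1a1 at up to 3.61 FPKM in Naive and up to 13.52 FPKM in Resist libraries, and their part in these changes was not tested.

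The other called genes belong to the BMP branch. Bmpr1b, a type I BMP receptor, was at 2.72, 2.88, 2.89, 2.96 and 3.41 FPKM in Naive and at 6.85, 4.91, 6.41, 6.96 and 5.22 FPKM in Resist libraries (log2 change 0.82, limma adjusted p = 0.000462). Every Resist library was above every Naive library. Smad6, the inhibitory Smad of BMP signaling, rose by 0.89 on the log2 scale (limma adjusted p = 0.00249), and Id1, a classical BMP target gene, rose by 0.73 (limma adjusted p = 0.00515). Smad9, a receptor-activated Smad of this branch, rose by 1.41 (limma adjusted p = 0.00326). It averaged 0.224 FPKM in Naive and 2.53 in Resist tumors, so it passed the filter through the Resist libraries only.

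**Figure D3:**
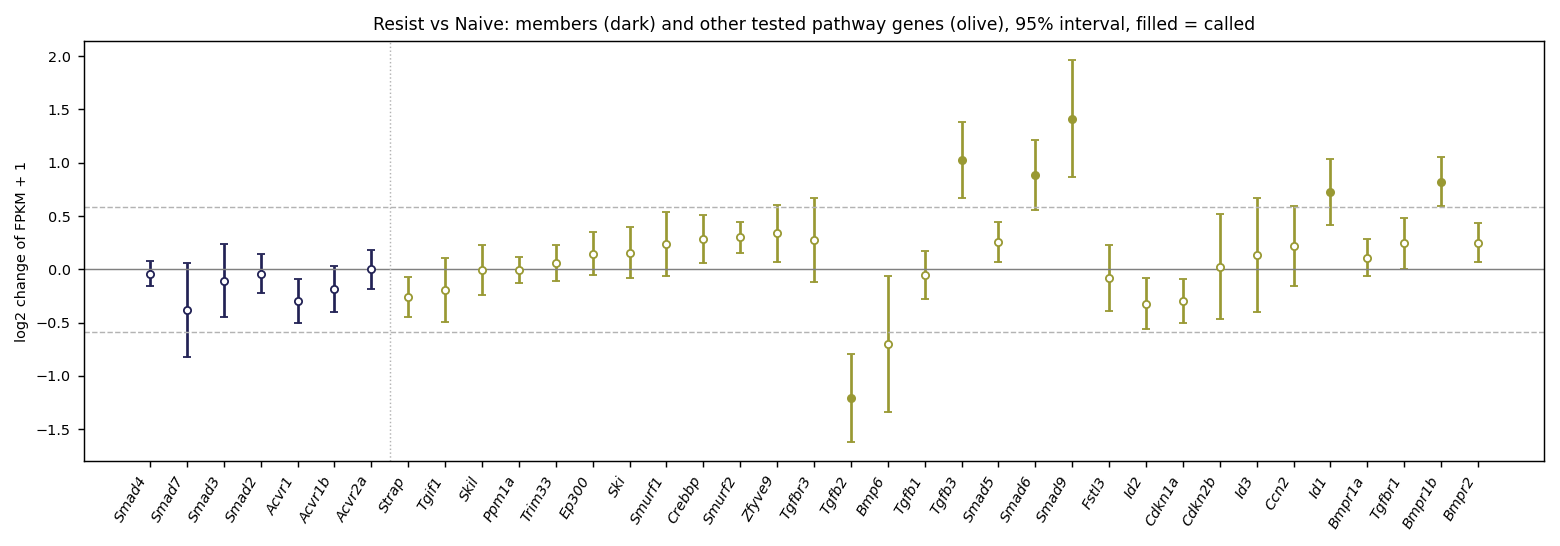
The log2 change of FPKM + 1 in Resist vs. Naive (vertical axis) for the 7 tested members (dark) and 30 other tested genes of the superfamily (olive), with limma 95% intervals, filled points for called genes and dashed lines at a fold change of 1.5. The members lie between -0.38 and 0, and the filled points are Tgfb2 below and Tgfb3, Smad6, Smad9, Id1 and Bmpr1b above.

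Levels of the receptors differed between the branches. Tgfbr2, the type II receptor of TGF-β, did not exceed 0.43 FPKM in Naive and 0.91 in Resist libraries, whereas its type I partner Tgfbr1 averaged 5.12 ± 0.541 and 6.28 ± 0.997 FPKM (SD, n = 5). The type II receptors Acvr2a and Bmpr2 averaged 7.24 and 7.65 FPKM in Naive tumors. Of the BMP-activated Smads, Smad5 averaged 9.37 FPKM in Naive tumors and Smad1 did not exceed 0.08 FPKM in any library of the Naive and Resist groups.

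**Figure D4:**
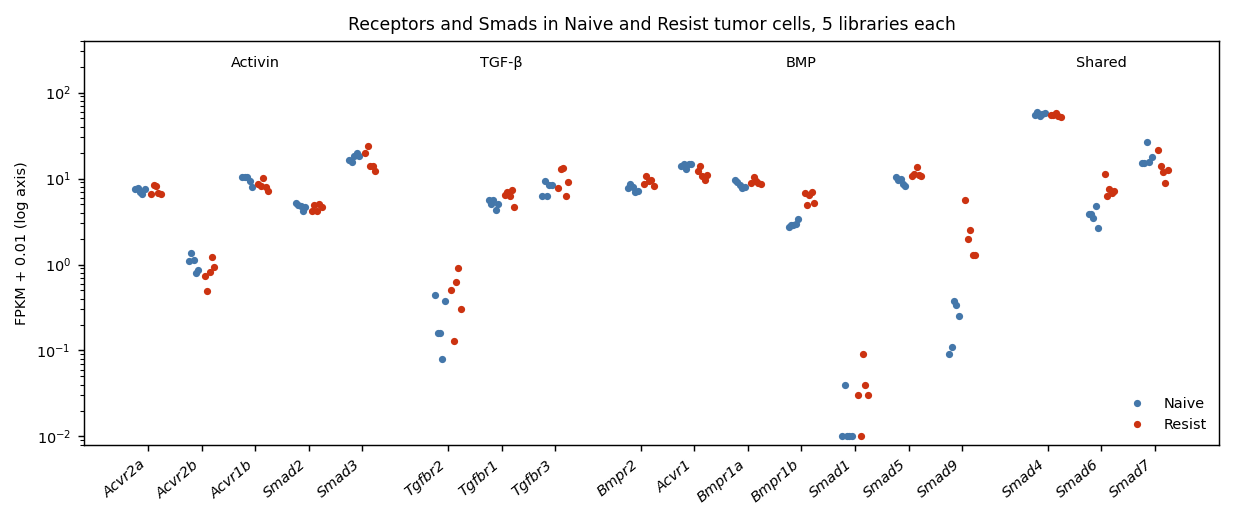
FPKM + 0.01 (vertical log axis) of activin, TGF-β and BMP receptors and Smads in the 5 Naive and 5 Resist libraries, grouped by the branch they mainly serve. Acvr2a and Acvr1b lie near 10 on this axis, Tgfbr2 below 1 and Smad1 near the floor, and the Naive and Resist points separate for Bmpr1b, Smad5, Smad6 and Smad9.

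The genes that the study placed under activin A were Fn1 and Itga5. Fn1, which encodes fibronectin, averaged 969 ± 157 FPKM in Naive and 1378 ± 168 in Resist tumors (SD, n = 5), without overlap and with a log2 change of 0.52 (limma adjusted p = 0.0103), under the fold change threshold. Itga5, which encodes the fibronectin receptor subunit alpha 5, rose by 1.28 (limma adjusted p = 0.000749). In Resist vs. Resist-Mac, Fn1 was called higher in Resist (log2 change 1.25, limma adjusted p = 5.15e-05). Itga5 was not called there (0.45, 95% interval -0.07 to 0.97, limma adjusted p = 0.146), and its groups overlapped. Batch and treatment cannot be told apart in that comparison. Fn1 and Itga5 were picked by the study on these samples. Ccn2, a common target of TGF-β and activin, had a log2 change of 0.21 (limma adjusted p = 0.403) and did not pass the test.

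Across the 10 Naive and Resist libraries, the genes most like Acvr1b by Pearson's r of log2(FPKM + 1) were Ireb2 (0.905), Alkbh4 (0.895) and H3c11 (0.870), and those most like Acvr2a were 8430429K09Rik (0.956), Samd4 (0.915) and Pik3ca (0.896). These are the highest of 10052 genes and a description only. The correlation of Acvr1b with Acvr2a was 0.286, which put Acvr2a at rank 2531 of these genes. All values of a library share its depth and its makeup of cells.

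Between Resist and Resist-Mac tumors, limma called 2181 of 10049 genes, or 21.7%, with 9.71% called higher and 12% called lower in Resist. Of the 7 tested members 1 was called, Acvr1b, and 6 of 7 log2 changes were above 0, as were those of 48.2% of all genes. The members' median was 0.31 against -0.02 over all genes. The share of members called was near the background. Setting the libraries to the same total over shared genes moved the median of all genes to 0.39 and the share of called genes that were higher in Resist from 44.8% to 93.8%, with 5 members called.

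Acvr1b measured 8.55, 8.14, 10.07, 8.03 and 7.17 FPKM in Resist and 4.11, 3.29, 5.30, 5.99 and 5.14 FPKM in Resist-Mac libraries. Every Resist library was above every Resist-Mac library, as was the case for 12.3% of all genes tested, and 29.7% were separated in either direction. The log2 change was 0.72 (SE 0.14, 95% interval 0.41 to 1.03, limma adjusted p = 0.00176). Corrected for the length and GC content of transcripts, the change was 0.52 (limma adjusted p = 0.00317), under the fold change threshold. Longer transcripts had higher log2 changes across all genes (Spearman's rho 0.642), and the tested members had a median length of 4418 bases against 3341 for all genes. Whether length accounts for the difference in Acvr1b was not tested beyond this correction.

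The other receptors differed less. Acvr2a measured 6.03, 5.87, 5.32, 7.04 and 8.13 FPKM in the Resist-Mac libraries, of which 3 lay below the Resist range and the other 2 inside it (log2 change 0.15, 95% interval -0.12 to 0.42, limma adjusted p = 0.349). Acvr1 measured 7.80, 9.74, 9.59, 8.78 and 9.09 FPKM in Resist-Mac libraries and overlapped with Resist only through Resist replicate 4. Its log2 change of 0.31 (limma adjusted p = 0.0409) did not reach a fold change of 1.5, and 43.7% of all genes had an adjusted p under 0.05. Acvr2b averaged 0.830 ± 0.264 FPKM in Resist and 0.594 ± 0.107 in Resist-Mac tumors (exact permutation test, two-sided, p = 0.119, n = 5). Without Resist replicate 2 the permutation p was 0.0238.

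No Smad was called here. Smad3 measured 10.98, 12.03, 16.95, 12.50 and 8.21 FPKM in Resist-Mac libraries (log2 change 0.43, 95% interval -0.01 to 0.87, limma adjusted p = 0.101), and Smad7 measured 13.63, 10.97, 7.78, 9.47 and 11.35 (log2 change 0.32, 95% interval -0.12 to 0.75, limma adjusted p = 0.219). Resist and Resist-Mac libraries overlapped for both. Smad2 had a log2 change of -0.09 (limma adjusted p = 0.478) and Smad4 of 0.20 (limma adjusted p = 0.0595). Inhba (exact permutation test, two-sided, p = 0.397, n = 5) and Fst (exact permutation test, two-sided, p = 0.722, n = 5) overlapped between the groups as well.

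Of the wider lists 32 genes were tested, with 6 called higher and 1 lower in Resist. The share called was near that of all genes tested, at 9.71% higher, 12% lower and 21.7% either way. The largest changes were those of the coactivators Ep300 (0.94) and Crebbp (0.90) and of the type II BMP receptor Bmpr2 (0.78), and Strap, which encodes a partner of Smad7, was lower (-0.63). Without Resist replicate 2, 4 genes were called, and after the length and GC correction 0 were.

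In Naive vs. Naive-Mac most of the transcriptome differed, with 5868 of 9837 genes called, or 59.7%, including 37.5% called higher and 22.1% called lower in Naive. Of the 7 tested members 5 were called, all higher in Naive: Smad3, Smad7, Acvr1b, Acvr1 and Acvr2a. This count stands on the high background just given. All 7 log2 changes were above 0, as were 57.9% of those of all genes, and the members' median was 1.39 against 0.23 over all genes tested. With median-ratio scaling the median of all genes was -0.05 and 5 members were called, and with the same total over shared genes it was 0.97 and 7 were called. Naive and Naive-Mac libraries were fully separated for 66% of all genes tested, 40.7% with Naive higher, and for 6 of the 7 members with Naive higher. Inhba and Acvr2b, which were not among the tested genes, were separated as well.

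Smad3 measured 2.50, 5.26, 3.96, 3.88 and 3.17 FPKM in the Naive-Mac libraries, all below the lowest Naive library at 15.68. The log2 change was 2.00 (SE 0.15, 95% interval 1.68 to 2.31, limma adjusted p = 3.48e-08), the largest among the tested members, but with the length and GC correction it was 0.81 (limma adjusted p = 2.25e-05), below that of Acvr1. Smad2 measured 2.89, 3.40, 4.38, 4.61 and 4.62 FPKM in Naive-Mac libraries, the highest 3 of which lay inside the Naive range (log2 change 0.22, 95% interval -0.06 to 0.49, limma adjusted p = 0.135). The ratio of Smad3 to Smad2 thus averaged 0.969 ± 0.334 in Naive-Mac tumors, against 3.78 in Naive and 2.46 ± 0.615 in Resist-Mac tumors (SD, n = 5). With the length and GC correction Smad2 turned to -1.27 (limma adjusted p = 1.2e-07), higher in Naive-Mac, so the direction for Smad2 depends on this step.

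Smad7 measured 3.36, 3.89, 3.61, 7.52 and 5.00 FPKM in Naive-Mac libraries, all below the Naive minimum of 15.03 (log2 change 1.75, SE 0.20, limma adjusted p = 2.59e-06). With the length and GC correction the Smad7 change was 0.76 (limma adjusted p = 0.0026). Smad4 measured 26.09, 38.13, 52.31, 49.00 and 39.44, the widest spread of this gene in any group. Its log2 change of 0.49 (95% interval 0.16 to 0.81, limma adjusted p = 0.00945) stayed under a fold change of 1.5, where 78.1% of all genes had an adjusted p under 0.05.

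All 4 receptors were lower in the Naive-Mac libraries than in every Naive library. Acvr1b measured 1.36, 2.21, 3.97, 2.70 and 2.21 FPKM (log2 change 1.65, SE 0.17, limma adjusted p = 1.15e-06), and Acvr1 measured 4.57, 4.42, 6.85, 4.46 and 4.00 FPKM (log2 change 1.39, SE 0.13, limma adjusted p = 2.87e-07). With the length and GC correction these changes were 0.70 for Acvr1b (limma adjusted p = 0.000226) and 1.14 for Acvr1 (limma adjusted p = 1.6e-06). Acvr2a measured 2.21, 3.76, 3.77, 3.79 and 3.86 FPKM (log2 change 0.90, SE 0.13, limma adjusted p = 2.82e-05), but after the length and GC correction the change was 0.07 (limma adjusted p = 0.510). Acvr2b measured 0.14, 0.23, 0.26, 0.09 and 0.15 FPKM, at the smallest p that 5 against 5 libraries allow (exact permutation test, two-sided, p = 0.00794), as was Inhba. Without the filter on low values the limma adjusted p of Acvr2b was 6.29e-06 and that of Inhba 0.00044.

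Markers of other cells were measured in the same libraries. Naive-Mac replicate 2 had neutrophil markers of 54.3 FPKM in sum, within the range of the Resist libraries, and its Smad3 (5.26), Acvr1b (2.21) and Acvr1 (4.42) were below every Naive and Resist library; this is a single library, and the part of other cells' RNA in the result was not tested. The sum of the 8 macrophage markers, carried mainly by Lyz2, was 16.5 to 99.3 FPKM in Naive, 3.46 to 53.2 in Resist, 35.7 to 811 in Resist-Mac and 4.57 to 523 in Naive-Mac libraries. Lyz2 and the neutrophil marker S100a8 were both highest in Resist-Mac replicate 1 (787.76 and 3635.59 FPKM). Within Naive-Mac both were lowest in replicate 2 (3.97 and 33.9 FPKM). Adgre1, Csf1r, C1qa and Mrc1 did not exceed 2.10 FPKM in any library. The sum therefore cannot be read as the amount of macrophage RNA. The erythroid gene Hba-a1 was higher in all Naive-Mac libraries, at 212.2 FPKM or more, than in all Naive libraries, at 104.23 or less. The length trend was steepest here, with a Spearman's rho of 0.709 across genes.

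Of the wider lists 31 genes were tested, with 18 called higher and 2 lower in Naive. The background of this comparison was 37.5% higher, 22.1% lower and 59.7% either way. The share of these 31 genes called either way was near that background. Ep300 (3.10), Crebbp (2.60) and the corepressor Ski (2.23) had the largest changes, and the cell cycle inhibitor Cdkn2b (-0.89) and Id1 (-0.87) were lower in Naive. With the length and GC correction 11 were higher and 1 was lower. Tgfbr2, Tgfbr1 and Fstl3 did not move alike, as Tgfbr2 was below 1 FPKM in both groups, Tgfbr1 had a log2 change of 0.45 (limma adjusted p = 0.0084) under the threshold, and Fstl3 was called at 0.80 (limma adjusted p = 0.00046).

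The change with depletion was then compared between resistant and naive tumors, by subtracting the log2 change of Naive vs. Naive-Mac from that of Resist vs. Resist-Mac. This difference passed an adjusted p of 0.05 for 51.9% of 9876 genes, with 38.3% of all genes below 0 and a median of -0.28. Of the genes that passed, 1338 were above and 3783 below 0; with median-ratio scaling 2712 were above and 2733 below 0 with a median of 0.02, and with the same total over shared genes 465 were above and 5320 below 0 with a median of -0.57. It passed for 5 of the 7 tested members, all below 0: Smad3 (-1.57), Smad7 (-1.44), Acvr1 (-1.08), Acvr1b (-0.93) and Acvr2a (-0.75). With the length and GC correction 3 members passed, Acvr1 (-0.79) and Smad3 (-0.71) below and Smad2 (0.67) above 0, while Smad7 (-0.67, limma adjusted p = 0.0948), Acvr1b (-0.21, limma adjusted p = 0.287) and Acvr2a (-0.13, limma adjusted p = 0.446) did not. The depleted groups come from separate batches, so that batch and response cannot be told apart.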

How the data were processed

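The authors deposited FPKM per gene and library, as log2(FPKM + 1) for Naive and Resist tumors (turned back to FPKM here) and as FPKM in the other tables. Per the labels, processing used Bowtie2 and build mm9; the counting tool and strand setting are not given in the sources used here. The 752 BGI_novel genes were removed. Genes were named from Entrez identifiers with RefSeq (16613, 15827 and 14053 names in the tables of Naive and Resist, Naive-Mac and Resist-Mac); lengths, GC content and overlaps came from GENCODE (GRCm38).

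Each comparison used its groups only. Genes averaging 1 FPKM or more were tested on log2 values with a pseudocount of 1 by limma 3.58.1 (R 4.3.3) with a trend; calls needed a change above 1.5-fold and an adjusted p (Benjamini-Hochberg, all genes) under 0.05. Fold changes on log2(FPKM + 1) understate those of low genes. Members under the filter had exact permutation tests of mean FPKM (numpy 2.4.6). P-values measure the spread between pools of 3 mice. On simulated data, limma recovered 99.5%, 99.0% and 97.5% of 200 changed genes in Resist vs. Naive (10057 genes), Resist vs. Resist-Mac (9962) and Naive vs. Naive-Mac (9738), at a log2 change of 1.5. False calls numbered 3, 4 and 3. The changed genes were not among the lowest, and the simulated noise held no batch or length effect. This recovery does not bear on smaller changes, such as those of the members in Resist vs. Naive.

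The members, gene lists and tests were chosen with earlier results of these data known. Named genes were all members, called genes of the superfamily lists in Resist vs. Naive, the top 3 by change each way in the other comparisons, a few chosen by name, and the 3 most like Acvr1b and Acvr2a. Ccn2, Bmpr2, Smad1 and Smad5 were named after their values were seen, and 2 listed genes are not reported here. Alternatives were another pseudocount, other filters, 2 scalings, no trend, a replicate block, 1 fit of all groups, no fold change threshold, a length and GC correction by a spline, and leaving out each library. Depth was estimated from the lowest FPKM values.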

Additional observations from a re-analysis of the deposited data

Results flagged for a closer look

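A single library stood far from the rest in 7 of the 40 groups of 5 values checked. About 2 would be flagged by chance among independent, normally distributed values. Genes of a library are not independent, so this number is no measure of how many flags are real. Where all other libraries of a group are at 0, as for Fst in Naive and Naive-Mac, any value above 0 is flagged. Fst gave 3 of these, at 0.04 FPKM in Naive replicate 2, 0.21 in Resist-Mac replicate 1 and 0.12 in Naive-Mac replicate 1, which are about 1, 6 and 3 fragments. Acvr2a was lowest in Naive-Mac replicate 1 at 2.21 FPKM, the library with the lowest Smad2, Smad3, Smad4, Smad7 and Acvr1b of its group. Acvr1 was highest in Naive-Mac replicate 3 at 6.85 FPKM, Acvr2b in Resist-Mac replicate 5 at 0.78 FPKM and Smad7 in Naive replicate 3 at 26.55 FPKM.

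Without a length and GC correction, the size of the change with macrophage depletion was not the same in resistant and in naive tumors, in a limma test of the difference itself, for Acvr1 (-1.08, adjusted p = 1.71e-05), Acvr1b (-0.93, adjusted p = 0.00187), Acvr2a (-0.75, adjusted p = 0.00136), Smad3 (-1.57, adjusted p = 3.82e-05) and Smad7 (-1.44, adjusted p = 0.000396). With the correction, Acvr1b, Acvr2a and Smad7 no longer passed (adjusted p = 0.287, 0.446 and 0.0948), and Smad2 passed above 0 (0.67). These values lie on a background of 51.9% of all genes, and batch and response cannot be told apart.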

How the results depend on the processing

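Of the alternatives run, single genes kept their side of the threshold in 493 cases, became stronger in 8, weaker in 2 and reversed in 1, and counts stayed within 1.5 times in 193 cases and moved in 15; where no cause is evident below, the cause was not tested. The reversal was Smad2 in Naive vs. Naive-Mac, at -1.27 with the length and GC correction. With a mean of at least 5 FPKM, fewer genes were tested and 392 were called in Resist vs. Naive. Without a fold change threshold, which is looser, 1915 genes and 1 member (Acvr1) were called in Resist vs. Naive, and 4388 genes and 2 members in Resist vs. Resist-Mac. With the same total over shared genes, Resist vs. Resist-Mac gave 3485 genes, 5 members and 16 superfamily genes. With the length and GC correction, 879 genes, 0 members and 0 superfamily genes were called there, 3561 genes and 12 superfamily genes in Naive vs. Naive-Mac, and 3 members in the test of the difference. Median-ratio scaling moved the share of higher calls in Naive vs. Naive-Mac from 62.9% to 48.2%.

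Leaving out each library gave 527 to 840 genes, 0 members and 5 to 7 superfamily genes in Resist vs. Naive, 2006 to 2450 genes, 1 member and 4 to 8 superfamily genes in Resist vs. Resist-Mac, with 4 without Resist replicate 2, and 5699 to 5990 genes, 5 members and 19 to 20 superfamily genes in Naive vs. Naive-Mac. In the test of the difference it gave 4806 to 5511 genes, 5 members and 14 to 17 superfamily genes. With the replicate number as a block, 624, 2228 and 5888 genes and 0, 1 and 5 members were called; the numbers do not pair the libraries, since correlations of same-numbered libraries ran from -0.20 to -0.03, -0.26 to 0.36 and -0.17 to 0.24, and 0, 1 and 0 of 5 correlated best with their own number. Depth limits Fst, Inhba and Acvr2b, and the batches limit each comparison with a depleted group.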
